A study of Mus musculus with 2 samples.

Results

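Guanylate-binding proteins, encoded by the Gbp genes, were examined in nuclear RNA of mouse macrophages. The 9 genes were found by their symbols, Gbp2, Gbp2b, Gbp3, Gbp4, Gbp5, Gbp6, Gbp7, Gbp8 and Gbp9, among 55536 annotated genes, of which 22028 are protein-coding. Ribosome-depleted total RNA was sequenced from the nucleoplasmic fraction of C57BL/6J bone-marrow-derived macrophages, which are primary cells grown out of marrow. The cells had received Lipid A, the part of bacterial lipopolysaccharide that activates TLR4, at 100 ng/ml for 12 h, had been washed for 12 h and were then restimulated for 10 min with the same dose. Both libraries, biological replicates 1 and 2, belong to this single group, so no comparison with untreated or other cells was made. RNA input was 1 µg for replicate 1 and 500 ng for replicate 2. Age and sex are not given, and both libraries carry the same donor identifier with different biosample identifiers. The labels do not say whether they came from separate animals or cultures, so the spread between them may in part be technical.

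Guanylate-binding proteins are large GTPases of the dynamin superfamily whose genes are switched on by type I and type II interferon. In infected macrophages the proteins assemble on pathogen-containing vacuoles and on cytosolic bacteria, help to break them open and promote sensing of bacterial lipopolysaccharide and DNA by inflammasomes. Several carry a lipid tail added by prenyltransferases, and autophagy conjugation proteins help to direct them to vacuoles. Mouse Gbp genes lie in a cluster on chromosome 3 and another on chromosome 5, and mice that lack the chromosome 3 cluster are susceptible to Toxoplasma gondii.

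The 5 members on chromosome 3 spanned 144 kb in the order Gbp5, Gbp7, Gbp3, Gbp2b, Gbp2, all on the plus strand. The 4 members on chromosome 5 spanned 279.5 kb in the order Gbp8, Gbp9, Gbp4, Gbp6, all on the minus strand. Within these spans the annotation placed 4 other genes. On chromosome 3 they were the processed pseudogene Gm43802, which lies inside Gbp7, and the microRNA gene Mir6381, which lies inside Gbp2 on the other strand. On chromosome 5 they were Gbp10 and Gm43302, a protein-coding gene model that overlaps Gbp10 and Gbp6. The coding sequences of the chromosome 5 members were more alike than those on chromosome 3. Identity over the aligned coding bases ran from 90.2% to 92.9% over the 6 pairs on chromosome 5, with a median of 90.8%. Over the 10 pairs on chromosome 3 it ran from 63.8% to 82.5%, with a median of 65.1%, and Gbp2 with Gbp2b was the closest pair. The 20 pairs between the clusters had 63.4% to 75.4%.

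**Figure D1:**
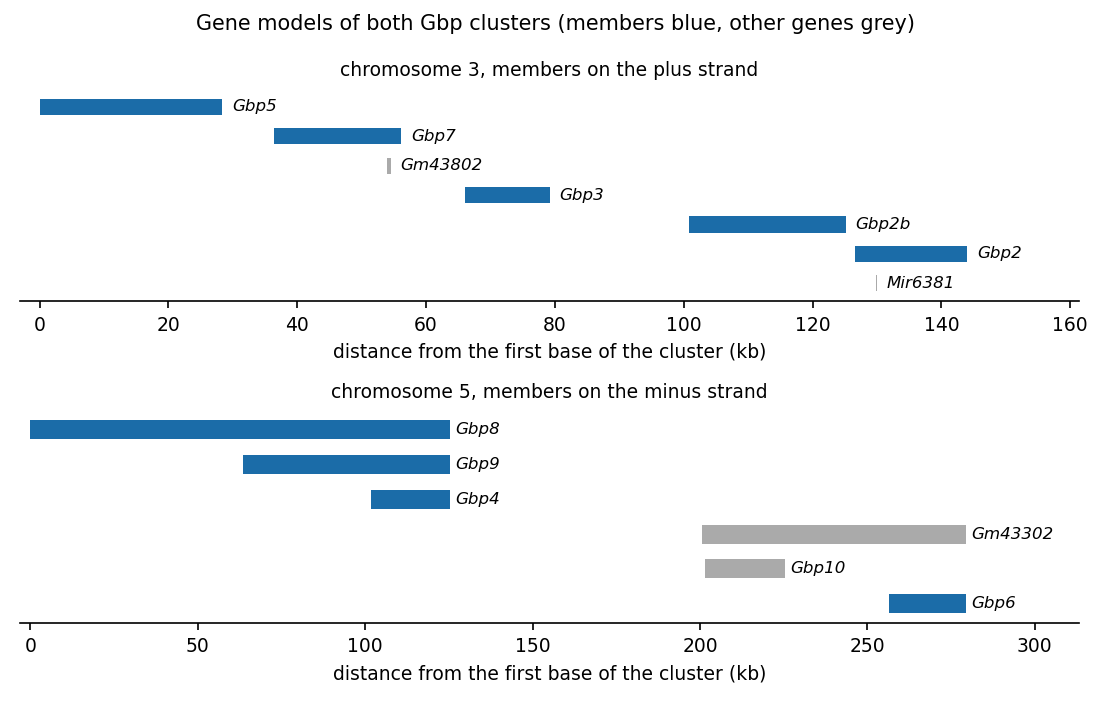
Gene models of both Gbp clusters, with distance in kb from the first base of each cluster on the horizontal axis and 1 bar per gene from its first to its last annotated base. Members are blue and other annotated genes grey, and the right-hand ends of Gbp8, Gbp9 and Gbp4, which are their starts on the minus strand, coincide.

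Promoter sequences were read for the members with an entry in the RefSeq promoter table (GRCm38.p6), which were the 5 on chromosome 3. No entry was used for Gbp4, Gbp6, Gbp8 and Gbp9. The promoters are shown because interferon acts on Gbp genes through STAT and IRF factors, whose known motifs can be looked for in the letters. Each line gives the 200 bases before an annotated start site, 5′ to 3′, with capitals marking matches to the interferon-stimulated response element searched as TTTC, any 2 bases (NN) and TTTC, or GAAA, NN and GAAA on the other strand.
Gbp5 (chr3:142496734-142496933, plus strand): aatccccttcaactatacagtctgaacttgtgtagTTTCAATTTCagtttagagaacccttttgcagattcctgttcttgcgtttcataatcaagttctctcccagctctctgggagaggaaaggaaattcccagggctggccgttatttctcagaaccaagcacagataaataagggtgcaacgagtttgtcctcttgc
Gbp7 (chr3:142530136-142530335, plus strand): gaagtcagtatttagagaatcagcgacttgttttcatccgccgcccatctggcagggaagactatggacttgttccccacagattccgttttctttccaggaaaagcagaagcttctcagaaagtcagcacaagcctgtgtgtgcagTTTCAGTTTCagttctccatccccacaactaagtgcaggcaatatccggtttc
Gbp3 (chr3:142559844-142560043, plus strand): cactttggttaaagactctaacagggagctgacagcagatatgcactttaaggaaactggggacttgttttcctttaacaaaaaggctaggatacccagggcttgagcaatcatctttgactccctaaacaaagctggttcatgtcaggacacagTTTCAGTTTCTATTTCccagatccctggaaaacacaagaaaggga
Gbp2b (chr3:142594647-142594846, plus strand): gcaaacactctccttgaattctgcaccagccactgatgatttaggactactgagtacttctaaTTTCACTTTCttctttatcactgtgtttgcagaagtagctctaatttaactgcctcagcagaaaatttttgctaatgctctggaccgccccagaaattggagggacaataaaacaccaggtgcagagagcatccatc
Gbp2 (chr3:142620463-142620662, plus strand): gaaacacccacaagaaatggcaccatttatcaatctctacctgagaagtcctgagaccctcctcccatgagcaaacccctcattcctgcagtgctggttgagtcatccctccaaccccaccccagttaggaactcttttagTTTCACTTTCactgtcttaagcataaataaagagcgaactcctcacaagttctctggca

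Each of the 5 genes held a match to the interferon-stimulated response element, against 1131 of 32851 RefSeq promoter windows of the same length, or 3.44%. Those windows run from 250 bases before the start site to 50 after it. Counted from the start site, the match lay at −165 to −156 in Gbp5, −53 to −44 in Gbp7, −137 to −128 in Gbp2b and −59 to −50 in Gbp2. Gbp3 held a pair of overlapping matches, at −45 to −36 and −39 to −30. The STAT motif TTCNNNGAA, which reads the same on both strands, was found in Gbp5 (−245 to −237 and −52 to −44) and in Gbp7 (−106 to −98 and −87 to −79), and not in the windows of Gbp3, Gbp2b and Gbp2; the first Gbp5 match lies before the printed bases. Of all windows 8.30% held it. These matches describe letters in a window and are neither binding sites nor causes of a level.

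Start sites differed between RefSeq and the GENCODE models used for counting. Gbp2-201 starts at position 142620602, so that the Gbp2 match lies within its first exon. A second RefSeq start site of Gbp3, at 142560356, had no match to either motif in its window. The Gbp3 transcript with the most counts, Gbp3-202, starts at 142560411, nearer to that second site. It held 87.1% of the Gbp3 counts in replicate 1 and 74.2% in replicate 2, while Gbp3-203, which starts at 142560052 beside the first site, held 11.5% and 25.5%. Reads are divided between these transcripts by estimate. A second deposited table, derived directly from the reads and here called the other quantification, gave Gbp3-202 79.1% and 75.5%.

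Gbp RNA was abundant in the nucleoplasmic fraction. The purity of the fraction was not tested, and the mitochondrially encoded mt-Co3 had 514.34 TPM in replicate 1 and 385.20 TPM in replicate 2. Expected counts on genes, which are estimated read numbers that need not be whole, summed to 24444219 in replicate 1 and 18051097 in replicate 2. Of the 9 members, 8 were detected, meaning a TPM (a level corrected for transcript length and library size) of at least 1 and a count of at least 10 in both libraries. Over all protein-coding genes the share detected was 42.9%. The median member stood at 47.9 TPM (the mean of both libraries), against 7.99 TPM for the 9443 detected protein-coding genes. The 9 genes together reached 551.79 TPM in replicate 1 and 440.56 TPM in replicate 2, a mean of 496 ± 78.7 TPM (SD, n = 2). In replicate 1 they took 0.265% of all gene counts (exact binomial 95% interval 0.263% to 0.267%) and in replicate 2 0.205% (0.203% to 0.207%), intervals that cover counting error only. In bulk RNA, fewer expressing cells and less RNA per cell cannot be told apart.

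Macrophage identity of the libraries was checked with lists of markers. All 10 macrophage markers were detected, led by Lyz2 (lysozyme) at 968.36 TPM in replicate 1 and 953.10 TPM in replicate 2, Mpeg1 (perforin-2) and Adgre1 (F4/80). None of the 8 T and NK cell, 5 B cell, 6 neutrophil, 6 dendritic cell or 7 fibroblast and endothelial markers was detected. The highest summed level of such a list was 2.05 TPM, for dendritic cells in replicate 1.

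Gbp6 and Gbp2 had the highest mean levels. Gbp6 (ENSMUSG00000104713.4, chromosome 5, 105270702 to 105293698), which was found with Gbp7 to restrict intracellular bacteria, had 101.89 TPM in replicate 1 and 93.27 TPM in replicate 2 (97.6 ± 6.10, SD, n = 2). Gbp2 (ENSMUSG00000028270.12, chromosome 3, 142620602 to 142638008), a prenylated member that coats Toxoplasma vacuoles and promotes caspase-11 responses to lipopolysaccharide, had 130.68 and 60.45 TPM (95.6 ± 49.7). The means of Gbp6 and Gbp2 were close, but Gbp6 was nearly equal in both libraries while Gbp2 was more than 2-fold higher in replicate 1. Among detected protein-coding genes, 97.3% had a lower mean TPM than Gbp6 and 97.2% a lower mean than Gbp2.

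The next members on chromosome 5 were Gbp8, Gbp9 and Gbp4. Gbp8 (ENSMUSG00000034438.16, 105014150 to 105139540) had 57.76 TPM in replicate 1 and 86.01 TPM in replicate 2 (71.9 ± 20.0, SD, n = 2). Gbp9 (ENSMUSG00000029298.15, 105077630 to 105139539) had 56.76 and 64.55 TPM (60.7 ± 5.51). Gbp4 (ENSMUSG00000079363.7, 105115767 to 105139586) had 53.66 and 42.18 TPM (47.9 ± 8.12). Gbp8 and Gbp9 were the members with the higher TPM in replicate 2.

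The remaining detected members on chromosome 3 were all higher in replicate 1. Gbp3 (ENSMUSG00000028268.14, 142560026 to 142573209) had 57.15 TPM in replicate 1 and 37.53 TPM in replicate 2 (47.3 ± 13.9, SD, n = 2). Gbp5 (ENSMUSG00000105504.4, 142493978 to 142522344), a prenylated member linked to NLRP3 inflammasome assembly, had 58.85 and 31.93 TPM (45.4 ± 19.0). Gbp7 (ENSMUSG00000040253.15, 142530342 to 142550149), linked to oxidative and autophagic defence against bacteria, had 33.87 and 24.25 TPM (29.1 ± 6.80). These are levels of moderately to highly expressed genes, since 86.1% of detected protein-coding genes had a lower mean TPM than Gbp7 and 92.9% a lower one than Gbp3.

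Gbp2b stood apart from the other members. Gbp2b (ENSMUSG00000040264.10, chromosome 3, 142594847 to 142619179), also known as Gbp1, had 1.17 TPM in replicate 1 and 0.39 TPM in replicate 2 (0.78 ± 0.55, SD, n = 2), from 121 and 28 counts. Its neighbour Gbp2, with which it shares 82.5% of coding bases, had 11888 and 3840 counts. Gbp2b passed the detection limit in replicate 1 and missed it in replicate 2.

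Most neighbours in the order of mean TPM were not separated by the replicates. From the highest the order was Gbp6, Gbp2, Gbp8, Gbp9, Gbp4, Gbp3, Gbp5, Gbp7, Gbp2b. The ranges of both libraries were separate only for Gbp9 above Gbp4 and for Gbp7 above Gbp2b. Gbp8 above Gbp9 and Gbp5 above Gbp7 held in both libraries although their ranges overlapped. The other 4 neighbouring pairs changed order between libraries. Gbp2 ranked 1 and Gbp5 ranked 3 among the members in replicate 1, against 4 and 7 in replicate 2, and Gbp8 ranked 4 in replicate 1 and 2 in replicate 2.

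**Figure D2:**
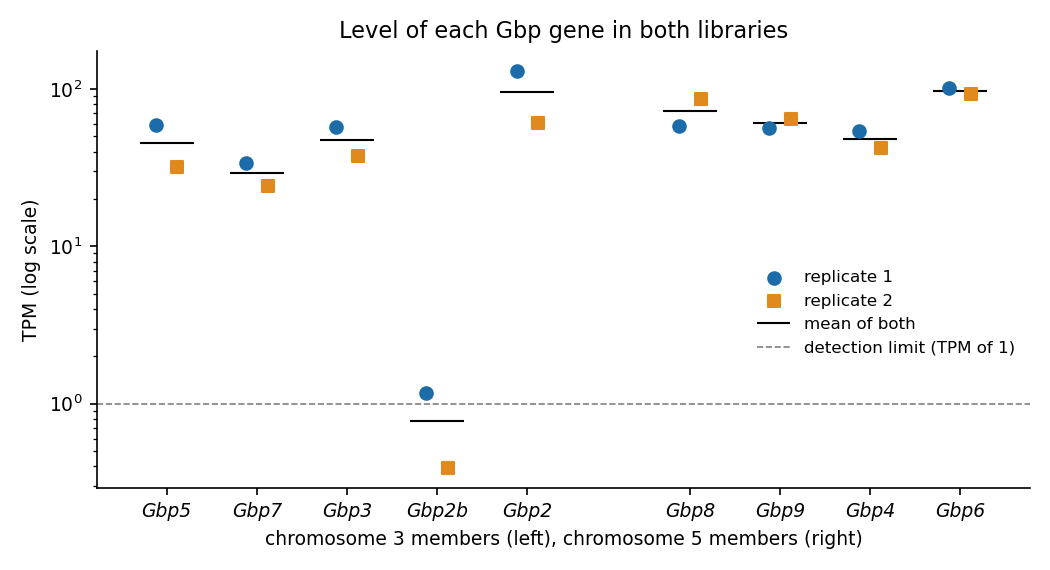
TPM on a log axis for each Gbp gene, with replicate 1 as a circle, replicate 2 as a square, the mean of both as a line and the detection limit of 1 TPM dashed. Gbp2b sits near the limit at 1.17 and 0.39 TPM, and Gbp2 shows the largest gap in TPM units, with 130.68 against 60.45 TPM.

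The clusters contributed unequally in the libraries. Chromosome 3 members summed to 281.72 TPM in replicate 1 and 154.55 TPM in replicate 2, and made up 51.1% and 35.1% of the family's TPM (43.1% ± 11.3, SD, n = 2). Chromosome 5 members summed to 270.07 TPM in replicate 1 and 286.01 TPM in replicate 2, or 48.9% and 64.9% of the family. So the summed level of the chromosome 5 members differed by little, and that of the chromosome 3 members was higher in replicate 1.

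The libraries were compared by dividing normalised counts of replicate 1 by those of replicate 2, as a log2 ratio with a 95% interval that covers counting error only. With 1 library on each side there is no test, and the ratio describes these libraries. All 5 chromosome 3 members lay above 0, and 3 of them more than 2-fold higher in replicate 1. By library totals and by TPM 2 remained past 2-fold, since Gbp5 moved to 0.97 and 0.88. Of the 4 chromosome 5 members 3 lay above 0 (2 with scaling by library totals or by TPM), and 0 lay past 2-fold in either direction, although Gbp4 reached 1.52 when protein-coding transcripts alone were counted. Among the 15431 genes that averaged at least 10 counts, 5.37% lay more than 2-fold higher in replicate 1, 3.07% more than 2-fold lower and 49.8% above 0, with a median ratio of −0.0019. The median was 0.73 over the 9 members, 1.13 on chromosome 3 and 0.15 on chromosome 5. Protein-coding genes with effective lengths of 2000 to 3000 bases had a median of −0.035, and those of 3000 to 5000 bases −0.060.

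On chromosome 3, Gbp2 had a log2 ratio of 1.36 (1.30 to 1.41) from 11888 and 3840 counts. Gbp5 had 1.13 (1.07 to 1.20) from 7143 and 2691 counts, and Gbp2b 1.82 (1.23 to 2.41) from its few counts. Gbp3 had 0.85 (0.78 to 0.91) and Gbp7 0.73 (0.66 to 0.79). The intervals of all 5 lie above 0. The summed counts of the cluster gave 1.06 (1.03 to 1.09).

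On chromosome 5 the members differed in direction. Gbp4 had a log2 ratio of 0.63 (0.57 to 0.69) from 6417 and 3422 counts, and Gbp6 0.29 (0.25 to 0.33) from 13035 and 8824 counts. Gbp9 had 0.011 (−0.03 to 0.05), an interval that holds 0, from 9580 and 7863 counts, and −0.15 by library totals. Gbp8 had −0.25 (−0.30 to −0.19) from 4710 and 4620 counts and was the member lower in replicate 1, a direction that turned when protein-coding transcripts alone were counted. The summed counts gave 0.17 (0.15 to 0.20). Scaled by library totals, which shift every ratio by −0.16, the chromosome 5 median turned to −0.014, and by TPM to −0.029. On the TPM scale the median protein-coding gene itself shifted by −0.24, and relative to that shift the median was 0.21.

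**Figure D3:**
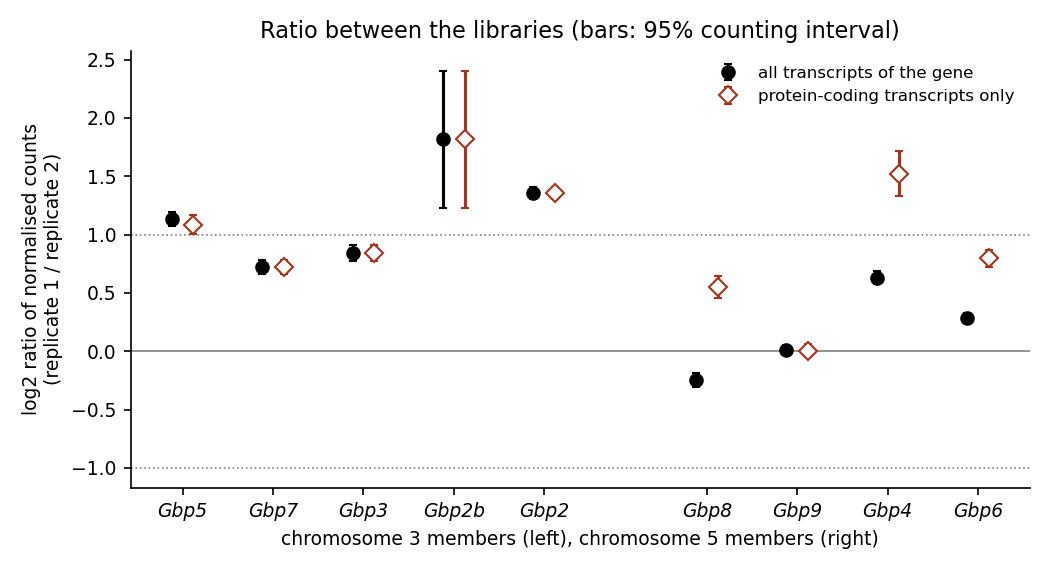
Log2 of the normalised counts of replicate 1 divided by those of replicate 2 for each Gbp gene, with 95% counting intervals as bars, for all transcripts of the gene (filled circles) and for transcripts annotated as protein-coding (open diamonds). Dotted lines mark 2-fold. The bars of the diamonds leave out the uncertainty of assigning reads to transcripts. For Gbp4-201 its SD was 122.75 on 634.48 counts in replicate 1 and 44.78 on 72.89 in replicate 2. All chromosome 3 members lie between 0.73 and 1.82, and on chromosome 5 the diamonds of Gbp8, Gbp4 and Gbp6 lie above their circles.

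Much of the Gbp RNA was assigned to transcripts that are not annotated as coding. The 9 genes have 34 annotated transcripts. Protein-coding transcripts took 64.5% of the family's counts in replicate 1 and 53.5% in replicate 2 (59.0% ± 7.81, SD, n = 2). Transcripts annotated for nonsense-mediated decay, which carry a premature stop and are usually destroyed in the cytoplasm, took 17.2% and 20.7%. Retained-intron transcripts took 15.6% and 18.6%, and processed transcripts, which have no annotated open reading frame, 2.67% and 7.18%. The other quantification gave a mean of 59.5% to protein-coding transcripts. The same shares were not computed over all genes, so whether they are particular to Gbp genes is not known.

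The forms not annotated as protein-coding were spread unevenly over the members. Gbp2, Gbp3, Gbp7 and Gbp2b had at least 99.8% of their counts in protein-coding transcripts in both libraries. For Gbp7 and Gbp2b no other transcript type is annotated. Gbp5 was the chromosome 3 member with a mixture, 58.0% and 60.0% coding, 24.0% and 19.8% nonsense-mediated decay and 18.0% and 20.2% retained intron in replicates 1 and 2. All 4 chromosome 5 members were mixtures.

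Gbp4 counts went mainly to a nonsense-mediated decay transcript. Gbp4-202 took 74.0% of the Gbp4 counts in replicate 1 and 85.6% in replicate 2, and all coding transcripts 14.9% and 8.01%. Gbp4-202 lacks 29 bases that the coding transcript Gbp4-201 has and the models otherwise hold the same bases, so the division of reads rests on that short stretch. The other quantification gave Gbp4-202 67.0% and 72.9%. By TPM, which corrects for length, Gbp4-202 made up 51.92% and 58.40% of the gene and the coding transcripts 36.68% and 35.29%. By TPM of the other quantification Gbp4-202 made up 39.7% and 45.9% and the coding transcripts together 41.6% and 36.6%. There the decay form was not ahead of them in replicate 1. Most of the coding TPM lay in Gbp4-203, Gbp4-204 and Gbp4-206, short models of 709, 736 and 768 bases. The 4538-base Gbp4-201 made up 6.89% and 1.44% of the gene's TPM, and 2.11% and 0.38% in the other quantification. The coding Gbp4-201 had 634.48 counts in replicate 1 and 72.9 in replicate 2, a log2 ratio of 2.84 whose interval, widened here by the uncertainty of assigning reads to transcripts, ran from 1.00 to 4.68.

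In Gbp6 the decay form held a larger share in replicate 2 and the coding form a larger share in replicate 1. The coding Gbp6-201 took 35.4% of the gene's counts in replicate 1 and 24.9% in replicate 2, and the decay form Gbp6-203 35.8% and 47.6%. In the other quantification Gbp6-201 took 36.6% and 24.8% and Gbp6-203 28.4% and 41.8%. By TPM, which corrects for the greater length of the decay form, Gbp6-201 made up 47.74% and 35.57% of the gene and Gbp6-203 29.16% and 41.12%, so the coding form was ahead in replicate 1 on that scale and in the other quantification. The log2 count ratios of the coding and the decay form were 0.80 (0.68 to 0.92) and −0.12 (−0.21 to −0.04). The retained-intron form Gbp6-202 took 28.9% and 27.5%. Gbp6-203 has 1709 bases that Gbp6-201 lacks, so these forms differ over long stretches.

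Within Gbp8 the coding and noncoding forms went opposite ways between libraries. The coding Gbp8-201 had 2534 counts in replicate 1 and 1433 in replicate 2, a log2 ratio of 0.55 (0.37 to 0.73). The processed transcript Gbp8-204, with 6 exons and 1902 bases, had 1712 and 2649 counts, a ratio of −0.90 (−1.06 to −0.75), and −1.13 in the other quantification. It took 36.3% of the gene's counts in replicate 1 and 57.3% in replicate 2. Of its bases 1755 are also in Gbp8-201 and 147 are not, so reads on the shared bases are divided by estimate. Counted over protein-coding transcripts, an alternative chosen after the values were seen, the Gbp8 ratio turned to 0.55, the Gbp4 ratio moved to 1.52 and the Gbp6 ratio to 0.80, and the chromosome 5 median was 0.67, against 1.08 on chromosome 3.

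Gbp9 kept nearly the same proportions of transcript types in both libraries. Coding transcripts made up 59.4% of Gbp9 counts in replicate 1, against 59.7% in replicate 2, and the retained-intron form Gbp9-203 took 40.6% and 40.3%. The coding part included Gbp9-202, with 401.49 counts in replicate 1 and 0 in replicate 2. Its assignment SDs were 118.07 and 7.49 counts, and the interval of its log2 ratio held 0 (−33.2 to 51.9). The other quantification also had Gbp9-202 at 1901 counts in replicate 1 and 0 in replicate 2. There the coding Gbp9-201 took 45.8% of the gene's counts in replicate 1 and 65.8% in replicate 2, so proportions within the coding part differed.

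**Figure D4:**
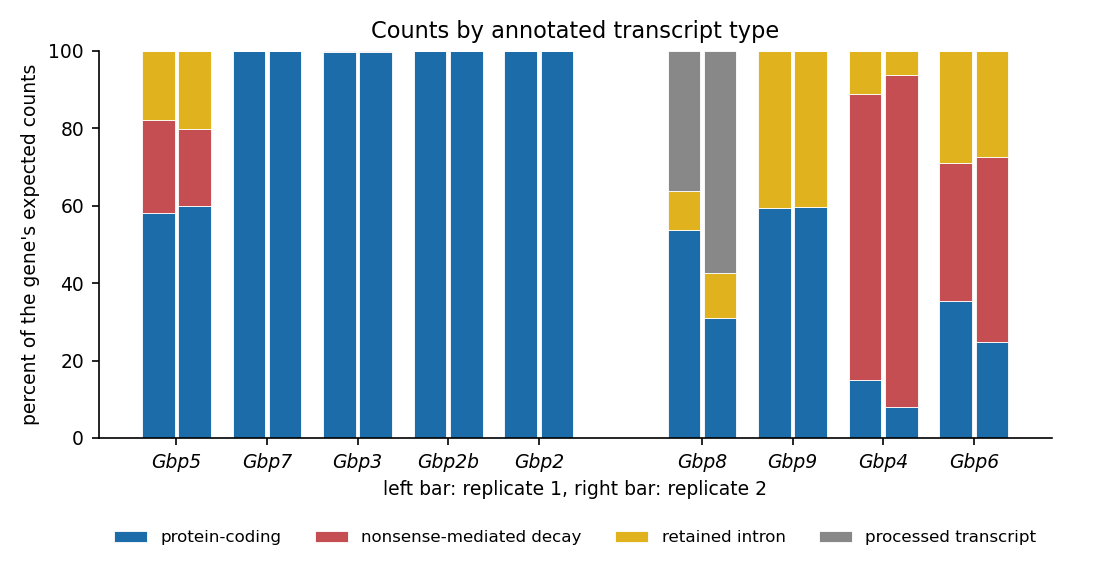
Percent of each Gbp gene's expected counts in annotated transcript types, as stacked bars with replicate 1 on the left and replicate 2 on the right of each pair. Gbp7, Gbp3, Gbp2b and Gbp2 are coding almost throughout, Gbp4 is mostly nonsense-mediated decay at 74.0% and 85.6%, and the processed transcript share of Gbp8 is 36.3% and 57.3%.

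The chromosome 5 gene models are interwoven. Gbp8-201 begins with a 61-base exon (105139480 to 105139540) that lies 88.4 kb from its second exon and coincides with bases of the first exon of Gbp4. Gbp9-202 begins with a 60-base exon in the same place, 33.6 kb from its second exon. The annotated spans of Gbp8 and Gbp9 therefore reach the Gbp4 start, while Gbp9-201 starts at 105110276 and Gbp8-203 at 105053556 on the minus strand. Counts on the shared exon cannot be told apart from the gene tables.

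Members shared sequence with other genes to different degrees, and reads from shared stretches are divided by estimate. Of the 31-base words of Gbp6 transcripts, 74.3% also occurred in another gene, and 67.8% occurred in Gm43302. The share was 31.1% in Gbp8, 18.3% in Gbp9, 14.9% in Gbp4 and 14.7% in Gbp7, where Gm43802 accounted for 10.8%. It was between 3.10% and 5.64% in Gbp5, Gbp2b, Gbp2 and Gbp3. The SD that the authors' tables give for assigning reads was at most 0.50% of the count in every member.

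The other quantification placed members lower relative to detected protein-coding genes, on average for all 9 and by less than the SD for Gbp2b. The log2 difference, gene table over the other quantification, was 0.58 ± 0.02 for Gbp8, 0.52 ± 0.04 for Gbp6 and 0.47 ± 0.07 for Gbp2 (SD, n = 2). It was 0.37 ± 0.01 for Gbp7, 0.36 ± 0.07 for Gbp9 and 0.35 ± 0.10 for Gbp5. Gbp3 (0.11 ± 0.01), Gbp4 (0.10 ± 0.04) and Gbp2b (0.06 ± 0.37) differed least. The ratios between libraries in the other quantification were 1.36 for Gbp2, 1.09 for Gbp5, 0.34 for Gbp6, −0.15 for Gbp8 and, for the rarely counted Gbp2b, 1.41.

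Other genes within the clusters were lower in level than the 8 detected members. Gbp10 had 3.43 TPM in replicate 1 and 4.60 TPM in replicate 2, but 373.20 and 142.61 counts and a log2 ratio of 1.11 (0.83 to 1.39), so TPM and counts gave opposite orders. Gm43302 had 0.36 and 0.80 TPM, from 59.0 and 90.8 counts with assignment SDs of 47.8 and 46.1. Gm43802, whose annotated bases all lie in Gbp7 exons, had 9.60 and 6.69 TPM. Mir6381 was listed at 0 in both gene tables. Gbp11, annotated as a polymorphic pseudogene and lying past Gbp6, had 12.86 and 15.64 TPM and a ratio of −0.04 (−0.15 to 0.08).

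Genes of the interferon pathway were mostly detected, with ratios on the same side as the chromosome 3 members. Of 17 genes, made up of receptors, kinases, transcription factors and Ifnb1 (interferon beta), 16 were detected. The exception was Ifnb1, at 3.02 TPM in replicate 1 and 0.68 TPM in replicate 2, a log2 ratio of 2.34 (1.40 to 3.29). Irf7, the interferon-induced regulator of type I interferon, had 421.02 TPM and 219.93 TPM, a ratio of 1.18 (1.15 to 1.21). Stat2, a transcription factor of type I interferon signalling, had 230.72 TPM in replicate 1 and 194.13 TPM in replicate 2, a ratio of 0.47. Batf2 was also past 2-fold, at 1.37. All 17 ratios lay above 0, with a median of 0.40, against 15 by library totals and 13 by TPM, and 3 were more than 2-fold higher in replicate 1 (2 by TPM). The lowest was 0.13, with an interval that held 0 (−0.004 to 0.27). Macrophage markers had a similar median of 0.41 with 10 of 10 above 0 (9 by library totals and 6 by TPM), so another list shared this side. That list includes the interferon-inducible Fcgr1, and among genes averaging at least 10 counts 49.8% lay above 0. What these lists have in common was not tested.

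Other interferon-induced GTPases lay on the same side as the chromosome 3 members. All 10 immunity-related GTPases in the files, which act on the same vacuoles, were detected at median levels of 44.0 TPM in replicate 1 and 34.0 TPM in replicate 2. Iigp1 had 208.37 and 128.21 TPM, Tgtp2 116.32 and 73.36 TPM, and Irgm1, a regulatory member, 93.77 and 93.16 TPM. All 10 log2 ratios lay above 0, also by library totals and TPM, with a median of 0.72 (0.56 by library totals and 0.49 by TPM). Of them 3 lay past 2-fold, against 2 by library totals and 1 by TPM, among them Tgtp1 at 2.18 and Igtp at 1.13. Tgtp1 and Tgtp2 are close copies, so reads may be divided between them. Among 6 other large GTPases, Mx1 (715.78 and 423.79 TPM, ratio 0.92), Mx2 (0.90) and Gvin1 (0.41) lay above 0, while the atlastins Atl3 (−0.14), Atl2 (−0.39) and Atl1 (−0.49), membrane-fusing relatives of Gbp proteins, lay below.

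Inflammasome genes, which act after Gbp proteins, had a median ratio below that of the chromosome 3 members. It was above the chromosome 5 median of 0.15. All 10 inflammasome genes were detected at medians of 18.8 TPM in replicate 1 and 17.5 TPM in replicate 2, with a median ratio of 0.23 and 9 of 10 above 0, against 5 by library totals and 6 by TPM. Gsdmd, the pore protein of pyroptosis, had 112.26 and 65.57 TPM (ratio 0.85), Aim2, the DNA sensor, 66.29 and 71.36 TPM (−0.17), and Casp4, the mouse lipopolysaccharide sensor caspase-11, 38.53 and 31.61 TPM (0.36). None of the 10 lay past 2-fold, and 1 did by TPM relative to the median protein-coding gene. These genes were measured in nuclear RNA, and their protein was not measured.

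Vacuole-targeting and prenylation genes had median ratios near 0, which library totals and TPM placed below it. Of 10 autophagy conjugation genes 9 were detected, with Gabarap at 43.24 and 57.78 TPM, Atg16l1 at 19.18 and 22.36 TPM and Atg7 at 14.72 and 21.81 TPM, and a median ratio of −0.06. The 3 ubiquitin genes of the vacuole response were detected, with the adaptor Sqstm1 (p62) at 95.24 and 117.75 TPM, Trim21 at 32.08 and 27.95 TPM and Traf6 at 5.77 and 7.43 TPM, and a median ratio of −0.09. Of 10 prenylation genes 9 were detected, at medians of 5.43 TPM and 5.92 TPM and a median ratio of 0.01. Pggt1b, the beta subunit of a prenyltransferase, had 16.46 and 16.15 TPM, Rabggtb 13.10 and 12.38 TPM and Fnta, the alpha subunit that it shares with farnesyltransferase, 6.01 and 7.87 TPM. Fntb, the farnesyltransferase beta subunit, missed the limit at 0.83 and 0.90 TPM. No gene of these 3 lists lay past 2-fold.

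**Figure D5:**
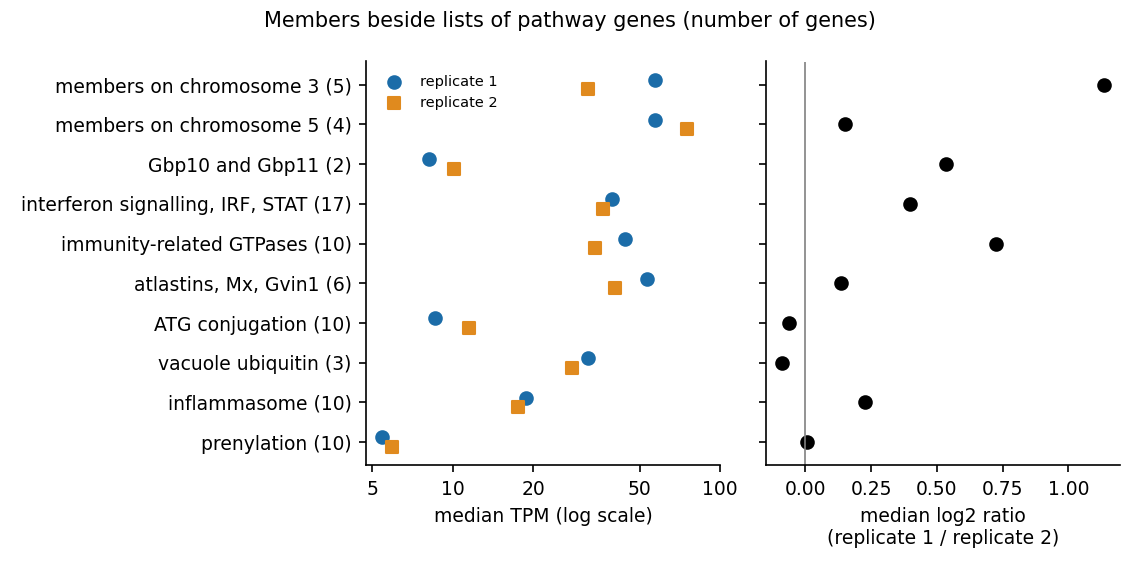
Median TPM on a log axis in replicate 1 (circles) and replicate 2 (squares) on the left, and median log2 ratio of replicate 1 over replicate 2 on the right, for both groups of Gbp members and the pathway lists, with the number of genes in brackets. The chromosome 3 members have the highest median ratio at 1.13, and the autophagy and prenylation lists lie at −0.06 and 0.01.

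Marker genes were compared between libraries in the same way. Macrophage markers had a median ratio of 0.41 with 10 of 10 above 0 (9 by library totals and 6 by TPM), and Fcgr1, an interferon-inducible Fc receptor, had 1.14 with 137.15 TPM in replicate 1 and 63.58 TPM in replicate 2. Dendritic cell markers, none detected, summed to 2.05 TPM in replicate 1 and 1.53 TPM in replicate 2, with a median ratio of 1.22 over the 5 with enough counts and 3 past 2-fold (1 by TPM). None of their 6 was at 0. Of the T and NK cell markers 5 of 8 had no counts in either library, of the B cell markers 3 of 5, of the neutrophil markers 3 of 6 and of the fibroblast and endothelial markers 1 of 7. RNA input also differed between libraries. The part of any of these in the Gbp ratios was not tested.

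Summed over the family, Gbp RNA was closest in level to B2m, the light chain of MHC class I, by the distance in log2 TPM over both libraries. B2m had 582.56 TPM in replicate 1 and 438.90 TPM in replicate 2, a distance of 0.08. Next came Lgmn (legumain, 577.61 and 463.06 TPM, distance 0.10), Rnf213 (a large interferon-induced ubiquitin ligase, 480.20 and 442.52 TPM, 0.20), the mitochondrially encoded mt-Co3 (514.34 and 385.20 TPM, 0.22) and Tmsb4x (thymosin beta 4, 626.97 and 484.04 TPM, 0.23). This likeness rests on 2 libraries of 1 condition and compares levels only.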

How the data were processed

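The authors' gene tables hold an expected count, an estimated read number, and a TPM per gene, per the file headers. The authors' transcript tables give the same with the percent of the gene's TPM per transcript. Score columns deposited beside them hold the SD of each count from assigning reads and the effective length. Another deposited transcript table, here the other quantification, gives estimated counts and TPM derived directly from reads. All used mm10 and GENCODE M21, per the deposited file descriptions. For the aligner and the quantifiers, names were not given in the sources used here.

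Counts were rounded for edgeR 4.0.16 (R 4.3.3), whose TMM factors, from genes averaging at least 10 counts, were 0.945 for replicate 1 and 1.06 for replicate 2. Ratios used counts with 0.5 added. The common biological coefficient of variation was 0.225. Alternatives were size factors of DESeq2 1.42.0, library totals, TPM, other count filters, the other quantification and coding transcripts only. Scripts ran in Python 3.11.15 with Biopython 1.88 for coding alignments. Ratios were tried on simulated counts whose spread was smaller than the 0.225 found here. That checks the calculation and not how far ratios vary between such libraries. Both libraries formed 1 group, so no test was made. Intervals cover counting error only. Those of single transcripts also include the SD of assigning reads, which the intervals over all protein-coding transcripts of a gene leave out. Entries that are not genes were left out; in replicate 1 their share of counts was 1.06%, against 0.245% in replicate 2. The other quantification summed to 32762245 and 30438850 counts.

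Members, gene lists and alternatives were chosen with earlier results of these data known. The genes named are the members, the 3 highest of each list with up to 2 past 2-fold, all genes annotated within the clusters and the 5 protein-coding genes nearest to the summed members in log2 TPM. Markers of other lineages are given as sums, and the 3 atlastins and Fntb were named after their values were seen. The values of 1 gene that this rule names are not reported here.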

Additional observations from a re-analysis of the deposited data

How the results depend on the processing

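The chromosome 3 median ratio of 1.13 stayed above 0 in every alternative tried and was 0.97 with library totals only and 0.88 by TPM. The chromosome 5 median of 0.15 turned to −0.014 with library totals only and −0.029 by TPM, was 0.21 by TPM relative to the median of protein-coding genes and 0.21 in the other quantification, and rose to 0.67 over protein-coding transcripts, an alternative chosen after seeing the data. That alternative also turned the Gbp8 ratio from −0.25 to 0.55 and moved Gbp4 from 0.63 to 1.52, past 2-fold, and Gbp6 from 0.29 to 0.80. The number of members past 2-fold was 3, and 2 to 4 over the alternatives (2 by library totals and TPM, where Gbp5 lost the call). The median of the members' log2 differences between quantifications, 0.36, was 1.06 with TPM as deposited, 0.17 with CPM, and 0.36 to 0.37 when either replicate was left out. The family median of 47.9 TPM was 224 CPM and 27.3 TPM in the other quantification. From replicate 1 alone all 9 members were detected. Ratios need both libraries, so none could be had with 1 left out. No paired analysis was possible because both libraries belong to 1 group. Depth limits Gbp2b, with 121 and 28 counts, and the division between Gbp4-201 and Gbp4-202 rests on 29 bases. The Gbp4 ratio of 1.52 rests in part on that division, and its interval leaves out the uncertainty of assigning reads.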
